A study of Mus musculus with 6 samples.

Results

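Ectonucleotidases are cell-surface enzymes that break down ATP and other nucleotides outside the cell. The present account covers 9 genes of this system among the 23412 genes of the deposited table: the ectonucleotidases Entpd1, Entpd2, Nt5e and Enpp1, the adenosine-degrading enzyme gene Ada, the adenosine receptor genes Adora1, Adora2a and Adora2b, and the ATP receptor gene P2rx7. All 9 symbols were found. The genes were chosen by their place in the pathway around Entpd1, and Entpd1 itself was chosen by its measured difference between the genotypes in these libraries. Its values, and those of the other members in the same contrast, are therefore given as a description and not as tests.

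ATP released by stressed or dying cells acts on P2 receptors such as P2rx7, whose channel opens at high ATP and activates inflammasomes in macrophages. Entpd1 (CD39) strips phosphates from ATP and ADP to give AMP, and Nt5e (CD73) turns AMP into adenosine. Adenosine then signals through its own receptors until Ada converts it to inosine. In skin, Entpd1 is known from Langerhans cells, regulatory T cells, macrophages and vessel endothelium. Enpp1 takes a different route, releasing pyrophosphate, an inhibitor of mineral deposition, from ATP.

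RNA came from 3 samples of ventral dermis of activated beta-catenin mice (HoxB6CreERT/+, R26-YFP/+, CatnbΔex3/+) and 3 samples of littermate controls (HoxB6CreERT/+, R26-YFP/+), aged 3 weeks and of a mixed CD1 and C57BL/6 background. Every mouse therefore carried the tamoxifen-inducible Cre and the yellow fluorescent reporter, and all were exposed to tamoxifen by gavage of the mother on embryonic day 16.5; only the mutants also carried the beta-catenin allele that loses its exon 3 and escapes degradation. The Cre follows HoxB6, so recombination is limited to cells that expressed the Cre when tamoxifen was given, while the RNA is from all cells of the dissected dermis. The question put to the members is how their RNA stands in dermis after activation of beta-catenin before birth.

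Levels are FPKM, fragments scaled to gene length and library depth, as the authors computed them. Gene reads recovered from the FPKM values ran from 11839144 to 13478910 in the mutants and from 7799565 to 9675359 in the controls. Mutant 1 and control 2 stood at opposite ends of the main axis of variation (-33.9 and 34.9 on the first principal component, 51.0% of variance), the other libraries between -8.45 and 4.74, so Entpd1 and Entpd2 are also given without them. Xist, which silences an X chromosome in females, stood at 55.5 FPKM in control 1 and 66.2 FPKM in control 2, where Y-linked genes were near 0. All mutants and control 3 expressed Y-linked genes, and mutant 2 also had 6.47 FPKM of Xist, so genotype and library sex partly coincide. With library sex as a covariate, the genotype difference is thus that of the mutants against control 3 alone. Markers of dermal fibroblasts were abundant, and those of epidermis and muscle were present as well. The 12 listed fibroblast genes summed to 9496 to 13622 FPKM in mutants and 2719 to 10456 FPKM in controls. The 9 keratinocyte genes found summed to 824 to 947 FPKM in mutants and 685 to 872 FPKM in controls, and the 7 skeletal muscle genes to 621 to 1323 FPKM in mutants and 314 to 1241 FPKM in controls.

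Entpd1 was the member with the largest difference. It measured 18.5, 14.2 and 11.4 FPKM in mutants 1 to 3, against 6.40, 5.21 and 4.88 FPKM in controls 1 to 3. Every mutant lay above every control, and the lowest mutant was well clear of the highest control. The means were 14.7 ± 3.56 FPKM in mutants and 5.50 ± 0.80 FPKM in controls (SD, n = 3 each), a ratio of 2.68. On the log2(FPKM + 1) scale the difference was 1.26 (95% interval 0.85 to 1.66), where the median of all 12560 tested genes was 0.09. These values rest on 1020 to 1519 reads per mutant library and 306 to 457 per control library. In dermis as a whole, more cells that express Entpd1 and more Entpd1 RNA per cell cannot be told apart.

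The call of Entpd1 was near the threshold. Entpd1 was 1 of the 18 genes with an adjusted p under 0.05 in a limma fit over all tested genes, 0.143% of them, and it was the only one of the 6 tested members among these; the other 3 members had a mean under 1 FPKM and were not tested. Since the choice of Entpd1 used that contrast, nothing is read from this count. Its adjusted p was 0.0442. It became 0.0564 without mutant 1, 0.242 without mutant 2 and 0.0795 without control 2. The log2 difference stayed between 1.09 and 1.27 in those fits. With library sex as a covariate, where control 3 alone stands against the mutants, the difference was 1.39. Without mutant 1 and control 2 together the difference was 1.06 (adjusted p = 0.0790).

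**Figure D1:**
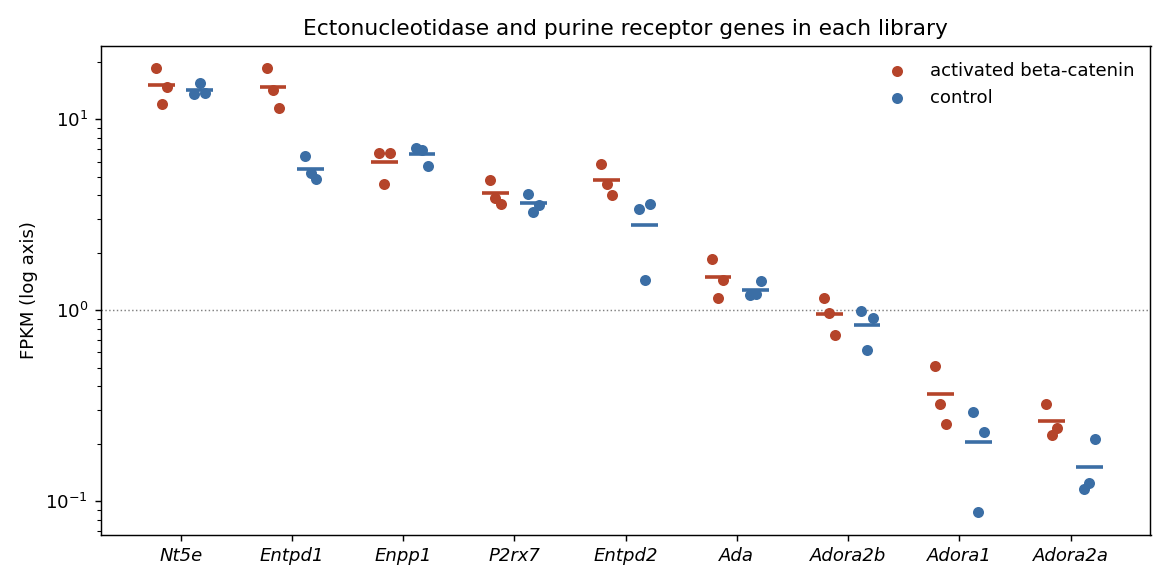
FPKM of the 9 genes in each library on a log axis, activated beta-catenin left of control; each point is a library, horizontal bars are means, and the dotted line marks 1 FPKM. The 3 mutant points of Entpd1 (11.4 to 18.5) lie above its 3 control points (4.88 to 6.40), while those of Nt5e, Enpp1, P2rx7 and Ada overlap.

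The Entpd1 gene (ENSMUSG00000048120) spans 129237 bases of chromosome 19, from 40612366 to 40741602 on the plus strand (GRCm38, GENCODE M21), with 11 annotated transcripts. The 3 annotated genes that overlap it on the same strand (Gm16027, Gm8783 and AC166063.1) have no deposited values under these names. The RefSeq promoter table (GRCm38.p6; 250 bases before to 50 after a start) holds a pair of Entpd1 windows, 47404 bases apart, at chr19:40612116-40612415 and chr19:40659520-40659819. A single FPKM value per gene does not tell which start was used, so both are shown, with CG dinucleotides in capitals because the windows differ in them: 23 in the upstream window and 10 in the downstream one, at a GC content of 64.0% and 48.7%.
Entpd1 upstream promoter: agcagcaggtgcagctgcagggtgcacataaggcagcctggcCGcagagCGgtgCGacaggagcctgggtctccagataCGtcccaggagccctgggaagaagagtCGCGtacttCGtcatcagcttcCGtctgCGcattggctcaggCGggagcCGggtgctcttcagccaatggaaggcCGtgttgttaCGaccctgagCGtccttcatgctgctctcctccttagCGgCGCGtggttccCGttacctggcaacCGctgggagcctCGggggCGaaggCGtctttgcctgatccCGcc
Entpd1 downstream promoter: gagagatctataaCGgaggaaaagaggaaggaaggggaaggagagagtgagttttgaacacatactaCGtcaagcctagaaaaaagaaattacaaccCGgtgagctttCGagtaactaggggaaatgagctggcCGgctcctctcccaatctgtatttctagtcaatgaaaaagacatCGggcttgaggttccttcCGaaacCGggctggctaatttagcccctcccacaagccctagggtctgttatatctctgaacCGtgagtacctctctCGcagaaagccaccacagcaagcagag

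These windows were searched on both strands for the TCF/LEF core (CTTTGA or CTTTGT), the site of the factors through which beta-catenin acts. They were also searched for exact matches to GAGGAAGT, an extended form of the core of PU.1, called the PU.1 core here. PU.1 is a myeloid factor whose gene, Sfpi1 in the table, was among the 18 called genes. Neither Entpd1 window held an exact match to any of these strings. The downstream window holds gaggaagg, which differs from the searched PU.1 string in its last base. Shorter forms were not searched. The table held 11 windows for 8 of the 9 members. The TCF/LEF core was in 5 of the 11, in windows of Enpp1, Ada, Adora1 and P2rx7, where 31.2% of all 32851 mouse windows of that length hold it. The PU.1 core, present in 3.2% of all windows, was in 1 of the 11, the downstream P2rx7 window at chr5:122650133-122650432 (plus strand). That window is shown with its TCF/LEF core at base 152 and its PU.1 core, on the opposite strand, at base 254 in capitals.
P2rx7 downstream promoter: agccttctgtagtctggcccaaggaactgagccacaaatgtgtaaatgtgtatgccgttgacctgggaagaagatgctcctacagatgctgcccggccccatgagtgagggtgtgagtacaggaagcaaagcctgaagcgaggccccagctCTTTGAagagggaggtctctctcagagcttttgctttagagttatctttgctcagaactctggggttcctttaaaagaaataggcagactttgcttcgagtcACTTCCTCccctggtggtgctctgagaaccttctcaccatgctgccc
A match is a string of letters only, and P2rx7, the member that holds both, had overlapping groups.

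Entpd2, a surface enzyme that prefers ATP over ADP and is known from glia and other stromal cells, came next in size. It measured 5.86, 4.60 and 4.03 FPKM in mutants 1 to 3, against 3.37, 1.43 and 3.59 FPKM in controls 1 to 3. The groups did not overlap, but mutant 3 was only slightly above control 3 and control 2 was far below the other controls. Means were 4.83 ± 0.94 FPKM in mutants and 2.80 ± 1.19 FPKM in controls (SD, n = 3 each), and the log2 difference was 0.66 (95% interval 0.13 to 1.19; adjusted p = 0.302 over all genes). Without control 2 the difference was 0.37, with library sex as a covariate 0.33, and without both mutant 1 and control 2 it was 0.24. The control values rest on 44 to 111 reads per library. Entpd2 (chromosome 2, 25395874 to 25401321) overlaps Npdc1 on the same strand in GENCODE, and the counting rule for shared reads is not given in the sources used here. Npdc1 measured 9.51, 7.22 and 6.51 FPKM in mutants and 5.62, 3.81 and 6.22 FPKM in controls, also lowest in control 2.

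Nt5e had the highest level of the 9 genes. The enzyme makes adenosine from AMP and also marks mesenchymal cells. It measured 18.5, 12.03 and 14.7 FPKM in mutants, against 13.6, 15.4 and 13.6 FPKM in controls. The mutants spanned the whole control range, with mutant 1 above and mutant 2 below every control. The log2 difference was 0.06 (95% interval -0.32 to 0.44), on 730 to 1296 reads per library, and it changed sign with the scaling (-0.05 after median-of-ratios scaling).

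Enpp1 was the only member with a negative difference. It measured 6.63, 4.59 and 6.63 FPKM in mutants and 7.09, 6.88 and 5.71 FPKM in controls. The groups overlapped and the log2 difference was -0.13 (95% interval -0.48 to 0.22), turning to 0.04 with library sex as a covariate and 0.02 without mutant 2.

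The 2 remaining tested members also had overlapping groups. Ada, which removes adenosine, measured 1.86, 1.15 and 1.43 FPKM in mutants and 1.21, 1.22 and 1.41 FPKM in controls, on 33 to 62 reads per library (log2 difference 0.11, 95% interval -0.20 to 0.43; 0.0075 without mutant 1). Mutant 2 was the lowest of all 6 libraries and mutant 1 the highest. P2rx7 measured 4.80, 3.88 and 3.61 FPKM in mutants and 4.07, 3.25 and 3.56 FPKM in controls (log2 difference 0.14, 95% interval -0.16 to 0.44; 0.04 without mutant 1). Only mutant 1 exceeded the highest control. Over the 5 tested members other than Entpd1, adjusted p ran from 0.302 to 0.950.

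The 3 adenosine receptor genes were low. Adora2b, a receptor of low affinity that raises cyclic AMP, measured 1.16, 0.965 and 0.739 FPKM in mutants and 0.987, 0.615 and 0.907 FPKM in controls, and the groups overlapped. Adora1, which couples to inhibition of adenylyl cyclase and is known from fat cells and neurons, measured 0.512, 0.324 and 0.252 FPKM in mutants and 0.294, 0.0872 and 0.231 FPKM in controls. Mutant 3 was below control 1, and the lowest value, in control 2, is 8 reads. Adora2a, which raises cyclic AMP in leukocytes and vessels and is linked to dermal fibrosis in mouse models, measured 0.323, 0.222 and 0.241 FPKM in mutants and 0.116, 0.124 and 0.211 FPKM in controls. Its groups did not overlap, but it had 12 to 16 reads per mutant library and 5 to 8 per control library. Their log2 differences, from a fit with no filter on low values, were 0.09 for Adora2b, 0.18 for Adora1 and 0.13 for Adora2a. The pseudocount of 1 compresses differences at such levels. Adora1 lies on chromosome 1 across from Mybph, a muscle gene on the other strand, at 1.96, 1.56 and 0.822 FPKM in mutants and 1.32, 0.483 and 1.65 FPKM in controls. Whether counting used strand is not given in the sources used here, so Adora1 is uncertain.

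**Figure D2:**
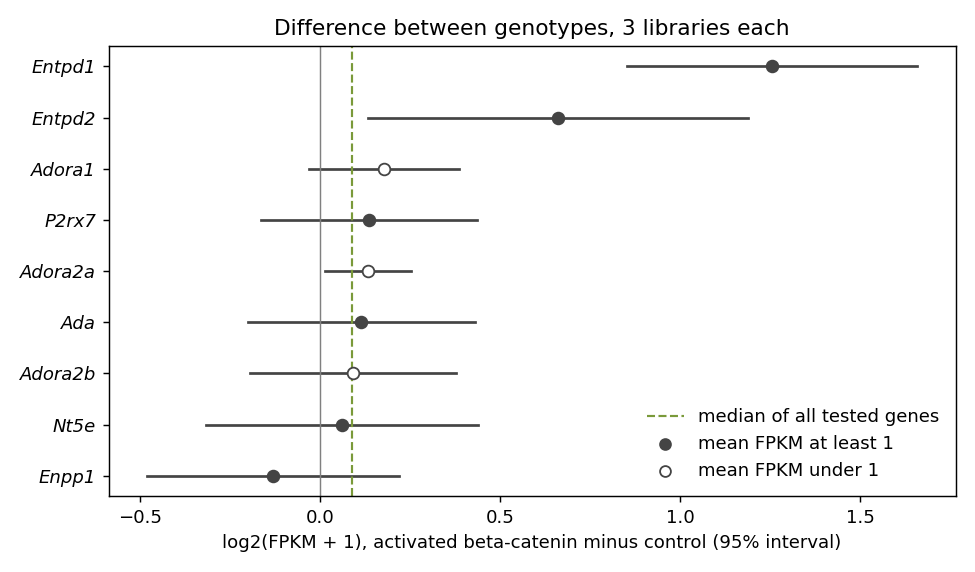
Difference in mean log2(FPKM + 1), activated beta-catenin minus control, with its 95% interval from the limma fit; filled points are the 6 members with a mean of at least 1 FPKM, open points the 3 below it, and the dashed line is the median of all tested genes (0.09). The interval of Entpd1 starts at 0.85, and those of the other genes include the dashed line except that of Entpd2, which starts at 0.13.

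Counted together, 8 of the 9 members had a log2 difference above 0 and 1 had one below; the share above 0 was 71.3% over tested genes and 64.4% over all genes in the fit with no filter. Their median, from the fit with no filter, was 0.13, and the same median over all genes was 0.03. For the 6 tested members alone the median was 0.125, against 0.088 over all tested genes. All 3 mutants lay above all 3 controls in 2 of the 6 tested members (Entpd1 and Entpd2), where 13.0% of all tested genes showed this. With Adora2a it was 3 of the 9 members, where the share over genes above 0 in any library was 10.9%. As the members were chosen with this contrast known, these counts are descriptions.

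The order of levels differed between the genotypes in the place of Entpd1. In the mutants Nt5e (15.1 ± 3.25 FPKM) and Entpd1 (14.7 ± 3.56) came first with overlapping ranges, and Nt5e was above Entpd1 in 2 of 3 libraries. Enpp1 (5.95 ± 1.18), Entpd2 (4.83 ± 0.94) and P2rx7 (4.10 ± 0.63) followed, each overlapping its neighbour, then Ada (1.48 ± 0.355), Adora2b, Adora1 and Adora2a. In the controls Nt5e (14.2 ± 1.04 FPKM) stood alone at the top. Enpp1 (6.56 ± 0.75) came before Entpd1 (5.50 ± 0.80) in 3 of 3 control libraries although their ranges overlapped, and P2rx7 (3.63 ± 0.42) before Entpd2 (2.80 ± 1.19) in 2 of 3. The lower part of the order, from Ada down, was the same in both groups, and Adora1 and Adora2a overlapped in both.

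Ratios within a library do not depend on its depth or scaling. Entpd1 over Nt5e was 1.0, 1.18 and 0.777 in mutants 1 to 3, against 0.470, 0.338 and 0.358 in controls 1 to 3. Entpd1 was below Nt5e in every control by a wider margin than in any mutant. Entpd1 over Enpp1 was 2.79, 3.09 and 1.72 in mutants and 0.902, 0.757 and 0.855 in controls. Entpd1 over Entpd2 was 3.16, 3.09 and 2.84 in mutants and 1.90, 3.64 and 1.36 in controls, and these overlapped, as did Nt5e over Ada (9.95 to 10.4 in mutants and 9.65 to 12.6 in controls). The 4 ectonucleotidase genes summed to 49.5, 35.4 and 36.8 FPKM in mutants and 30.5, 29.0 and 27.8 FPKM in controls. Of that sum Entpd1 held 36.2% ± 4.64 in mutants and 18.8% ± 1.88 in controls, and Nt5e 37.1% ± 3.01 in mutants and 49.0% ± 4.29 in controls (SD, n = 3 each). The shares are parts of a common sum, so a higher Entpd1 value by itself lowers the shares of the other genes. In FPKM the groups overlapped for Nt5e and for Enpp1. RNA levels do not give enzyme activity.

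**Figure D3:**
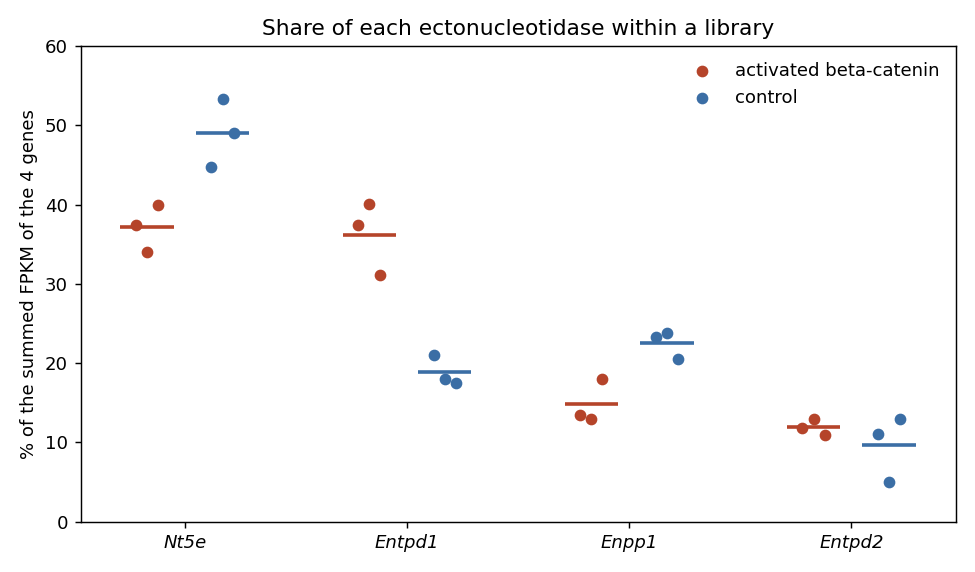
Share of each of the 4 ectonucleotidase genes in their summed FPKM, in percent, per library (points) with group means (horizontal lines), activated beta-catenin left of control. Entpd1 runs from 31.1% to 40.1% in mutants and from 17.5% to 21.0% in controls, while the shares of Nt5e and Enpp1 are lower in every mutant. A higher Entpd1 share by itself lowers the other shares, and the FPKM of Nt5e and Enpp1 overlapped between groups.

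Markers of cell types known to carry Entpd1 moved with it to different degrees. Of 21 tested macrophage and monocyte genes all 21 had a log2 difference above 0, with a median of 1.05 and non-overlapping groups in 20, and 3 were called: Ptprc, Sfpi1 and Fcer1g. Over all tested genes, 71.3% had a difference above 0, 13.0% had every mutant above every control, 0.143% were called higher and 11.3% had an unadjusted p under 0.05 in either direction. The list of 22 summed to 666, 367 and 395 FPKM in mutants and 205, 143 and 247 FPKM in controls, and none of its genes was at 0 in all libraries. Entpd1 per FPKM of that sum was 0.0278, 0.0387 and 0.0289 in mutants, against 0.0312, 0.0364 and 0.0197 in controls, so on this scale the groups overlapped. They also overlapped for 7 others of the 16 marker lists, among them mast cells (0.247 to 0.330 in mutants and 0.218 to 0.300 in controls), fibroblasts (0.00120 to 0.00150 in mutants and 0.000467 to 0.00192 in controls), dendritic cells (0.0439 to 0.0834 in mutants and 0.0389 to 0.0595 in controls) and T cells (1.73 to 2.31 in mutants and 1.15 to 1.86 in controls). The rest were skeletal muscle (0.0140 to 0.0184 in mutants and 0.00393 to 0.0166 in controls), red blood cells and B cells. The overlap is thus not particular to macrophage genes, nor to cell types known to carry Entpd1. Each sum is led by its most abundant genes, so these ratios are not Entpd1 per cell. Col1a1 alone, in the fibroblast sum, ran from 852 to 4494 FPKM among the controls. Lyz2 made up 237 of the 666 FPKM of the macrophage sum in mutant 1. The 12 blood endothelial genes had a median of 0.22, with 0 called by limma and 3 at an unadjusted p under 0.05, and summed to 65.1 to 79.6 FPKM in mutants and 48.4 to 62.7 FPKM in controls. Entpd1 per FPKM of the endothelial sum was 0.174 to 0.232 in mutants and 0.0777 to 0.108 in controls, which did not overlap, as was the case for 8 of the 16 lists in all.

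Dendritic and Langerhans cell genes (8 tested, median 0.85, 0 called, 6 at an unadjusted p under 0.05) summed to 170 to 301 FPKM in mutants and 87.6 to 164 FPKM in controls. That sum includes Epcam, at 29.8 to 43.4 FPKM in mutants and 34.2 to 43.6 FPKM in controls (log2 difference -0.04). It also includes H2-Eb1, which ran from 0.704 to 19.5 FPKM in mutants and from 0.264 to 9.15 FPKM in controls. Cd207, the langerin gene and a marker of Langerhans cells, was at 2.87 FPKM in mutants and 1.53 FPKM in controls, with overlapping groups. T cell genes were near the floor, with 1 of 12 found genes tested, and their sum was 6.60 to 8.0 FPKM in mutants and 2.62 to 5.57 FPKM in controls. Of the 12, 9 had every mutant above every control, among them Cd3e, Cd4 and the activation and regulatory genes Il2ra, Ctla4, Ikzf2 and Icos, while Cd3g, Lck and Foxp3 overlapped; 10.9% of all genes above 0 in any library had every mutant above every control. Foxp3, which defines regulatory T cells, was at 0.23 FPKM in mutants and 0.17 FPKM in controls. Mast cell genes (5 tested) had a median of 1.29 and fibroblast genes (11 tested) one of 0.91, each with 0 called by limma and 4 and 6 at an unadjusted p under 0.05, where 11.3% of all tested genes stood. The part of any of these cell types in the Entpd1 difference was not tested.

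**Figure D4:**
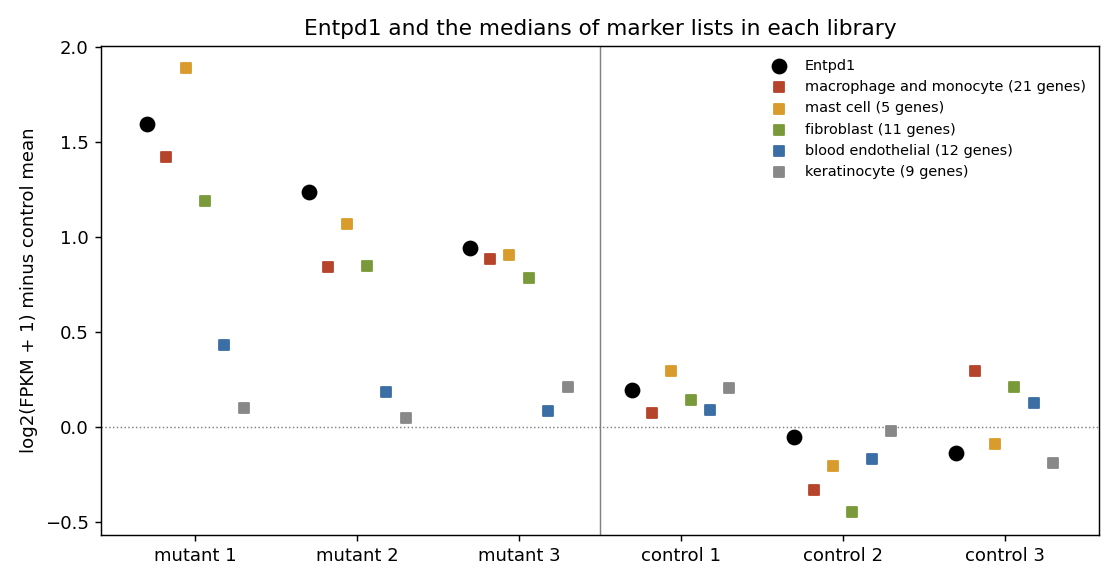
Entpd1 (circles) and the median of 5 marker lists (squares) in each library, as log2(FPKM + 1) minus the control mean; mutants are left of the vertical line. Entpd1 stands at 1.59, 1.23 and 0.94 in mutants 1 to 3, where the macrophage list has 1.42, 0.84 and 0.88, the mast cell list 1.89, 1.07 and 0.90 and the fibroblast list 1.19, 0.84 and 0.78, while the endothelial list stays between 0.08 and 0.43 in the mutants.

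The genes whose profile over the 6 libraries was most like that of Entpd1 were named by the root mean square difference between centred log2(FPKM + 1) values, over 12559 other tested genes. The 8 nearest, from 0.12 to 0.16, were Lsamp, Coro1a, Cd48, Fcer1g, Il13ra2, S100a4, Cma1 and H2-DMa. Lsamp, a neural adhesion gene, was nearest, at 2.88, 2.03 and 2.13 FPKM in mutants and 0.690, 0.307 and 0.353 FPKM in controls. Coro1a, an actin regulator of leukocytes, followed at 9.15, 6.51 and 6.06 FPKM in mutants and 3.20, 1.82 and 1.76 FPKM in controls. Cd48 is a leukocyte surface protein, H2-DMa loads class II molecules, Cma1 is a mast cell protease and Il13ra2 a decoy receptor for interleukin 13. Of the 8, 5 were among the called genes, where 0.143% of all tested genes were called higher. The 8 were picked for likeness to Entpd1, itself a called gene, so this count is only a description. Likeness of this kind is shared by genes with a similar difference between the genotypes.

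Of 68 listed genes outside the members, all 68 were found and 44 were tested. By limma 0 of the 44 were called higher and 0 lower, where 0.143% of all 12560 tested genes were called higher and 0 lower. At an unadjusted p under 0.05, 11 were higher and 0 lower (10.5% and 0.748% of all tested genes). With limma-voom on the recovered reads 0 of the 44 were called, where 186 of all tested genes were called higher and 4 lower. Their median was 0.13, with 30 of 44 above 0, against a median of 0.09 and 71.3% above 0 over all tested genes; the lowest adjusted p was 0.191.

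Among other nucleotide-hydrolysing enzymes (11 tested, median 0.08), the lysophospholipase D gene Enpp2 was at 21.2 ± 3.46 FPKM in mutants and 13.97 ± 3.95 in controls. The phosphatase gene Acpp, whose product also makes adenosine from AMP, was at 20.4 ± 4.75 FPKM in mutants and 24.5 ± 1.42 in controls. Mutant 2, at 14.9 FPKM, was far below the rest, mutants 1 and 3 (23.3 and 23.05) were just under the lowest control (23.4), and without mutant 2 the log2 difference was -0.08, against -0.28. Both genes stood above Entpd1 in mean level. Alpl, the phosphatase that degrades pyrophosphate and marks the dermal papilla, had a log2 difference of 0.67 (adjusted p = 0.354), and Entpd3 one of -0.20; these were 0.40 for Alpl without control 2 and -0.08 for Entpd3 without mutant 2. Adenosine handling genes (13 tested, median 0.16) included Adk, the kinase that returns adenosine to AMP, at 19.5 ± 2.89 FPKM in mutants and 14.2 ± 1.09 in controls (adjusted p = 0.294), and Pnp, which acts after Ada, at 17.2 ± 3.90 FPKM in mutants and 12.1 ± 2.21 in controls. Both had every mutant above every control, as did 13.0% of all tested genes. For Pnp the lowest mutant (14.23 FPKM) was barely above the highest control (14.20 FPKM). The log2 difference of Pnp was 0.47, 0.30 without mutant 1 and 0.17 without mutant 1 and control 2 together. The nucleoside transporter gene Slc29a1 had a difference of 0.52, which was 0.33 without control 2, 0.34 without mutant 1 and 0.14 without both. Dpp4, which anchors Ada on human cells, and Ampd3 had -0.10 and -0.04, and both were above 0 without mutant 2.

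Of the other receptors, 5 of 15 had a mean of at least 1 FPKM. Among those with a lower mean, which were not tested, Adora3, P2rx1, P2ry10, P2ry13 and P2ry14 had every mutant above every control. The rest of these overlapped. The share over all genes above 0 in any library was 10.9%. P2rx4, an ATP-gated channel of macrophages, was at 6.18 ± 0.99 FPKM in mutants and 3.84 ± 0.83 in controls, and P2ry6, a UDP receptor, at 1.80 ± 0.48 FPKM in mutants and 0.788 ± 0.376 in controls. Both had non-overlapping groups and an adjusted p of 0.191. With library sex as a covariate the log2 difference of P2rx4 was 0.38, against 0.58, and that of P2ry6 0.32, against 0.65. Without mutant 1 and control 2 together these were 0.32 for P2rx4 and 0.44 for P2ry6. P2ry2 and P2rx5 had differences of -0.30 and -0.23; that of P2ry2 was -0.06 without mutant 2. ATP release genes (7 tested, median -0.03) were led in level by the connexin genes Gja1, at 293 ± 74.2 FPKM in mutants and 325 ± 3.93 in controls, and Gjb2, at 168 ± 47.3 FPKM in mutants and 206 ± 9.40 in controls, where mutant 2 was lowest for each. Without mutant 2 the log2 difference of Gja1 was 0.05, against -0.18, and that of Gjb2 -0.08, against -0.34. Gjb6 had a difference of -0.30, which was -0.04 without mutant 2, Lrrc8a of 0.19, which was 0.08 without mutant 1, and Calhm2 of 0.27.

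Inflammasome genes downstream of P2rx7 had a median of 0.26 over 8 tested. Gsdmd, the pore-forming protein of pyroptosis, was at 5.10 ± 0.68 FPKM in mutants and 2.87 ± 1.03 in controls (adjusted p = 0.203). Il1b was at 3.97, 4.41 and 1.81 FPKM in mutants and 1.46, 1.85 and 1.56 FPKM in controls, so mutant 3 was below control 2; without mutant 3 it passed the threshold, and so did P2ry6 without control 3. The adaptor gene Pycard and the kinase gene Nek7, the most abundant of the list, had differences of 0.17 and 0.12, which were 0.06 and 0.00071 without mutant 1, and the antagonist gene Il1rn one of -0.04.

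**Figure D5:**
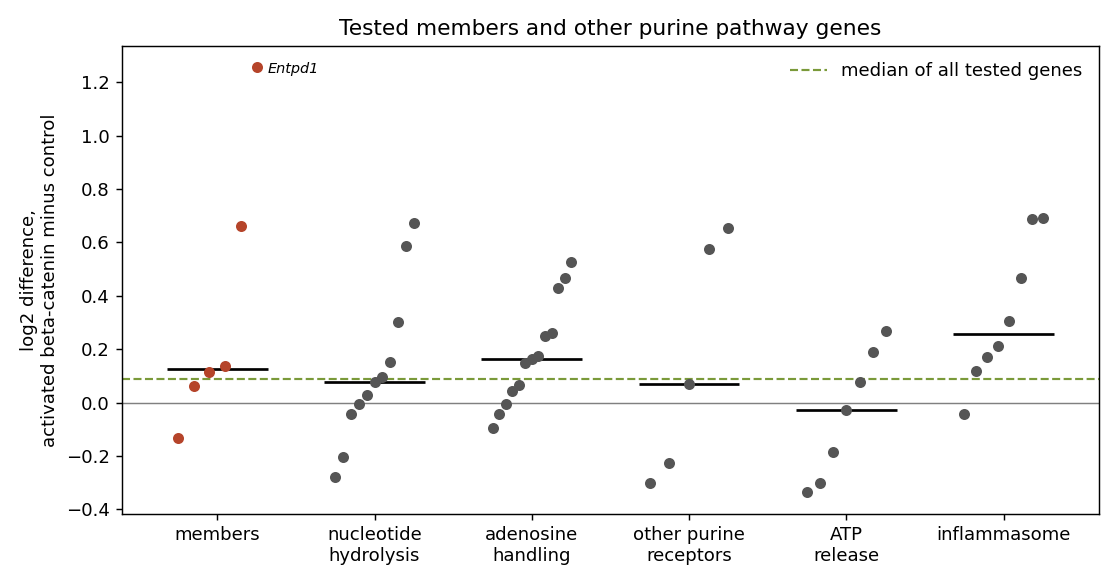
log2 difference, activated beta-catenin minus control, for the 6 tested members and the 44 other tested genes of the purine pathway in 5 lists; horizontal bars are medians and the dashed line is the median of all tested genes (0.09). Entpd1 at 1.26 lies above every other gene plotted, and list medians run from -0.03 to 0.26.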

How the data were processed

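RNA of 3 mutant and 3 control dermis samples was sequenced from stranded total RNA libraries, per the labels' protocols. Per the submitters' processing notes, the tools were GSNAP and HTSeq and the build mm10. The authors computed and deposited FPKM values of 23412 genes. Not given in the sources used here are versions, settings, the annotation and the gene lengths. The labels do not say whether each sample is 1 mouse, so p-values measure only the spread between these samples, which may be technical. The members and lists were chosen with earlier results of these data known.

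Values were compared as log2(FPKM + 1), which understates changes of low genes, for 12560 genes whose mean over the 6 libraries reached 1 FPKM. The test was limma 3.58.1 (R 4.3.3) with an intensity trend, two-sided, with Benjamini-Hochberg adjustment over all tested genes and a threshold of 0.05 (a called gene). An exact permutation test of 3 against 3 cannot go below p = 0.1. Within a gene, FPKM values are whole multiples of a step, which gave back reads per gene and library (relative tolerance 3e-09); 20144 genes had such a solution, 1448 had reads in a single library, set to 1 read there, and 1820 had none. Reads show depth and entered an alternative fit only; a common divisor would make them too low. The fit and the recovery were tested on simulated data. For the fit, errors were drawn independently for each gene, so that test does not cover variation shared between genes of a library.

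Named beside the members are, in each pathway list, the 2 genes of highest mean, the 2 largest and the 2 smallest differences, any called gene, and the 8 profiles nearest to Entpd1. Untested receptors with every mutant above every control are named as well. Of 16 marker lists, those of cell types with Entpd1 and the leading ones are described. In the remaining ones 0 genes were called, where 0.143% of all tested genes were called higher. Medians were 0.53 (lymphatic), 0.33 (pericyte and smooth muscle), 0.19 (dermal papilla), 0.85 (adipocyte) and 0.23 (keratinocyte). They were 0.18 (Schwann), 0.34 (skeletal muscle), 0.63 (red blood cell) and -0.13 (melanocyte), and 0 B cell genes were tested. By limma an unadjusted p under 0.05 was found for 2 of 3 tested lymphatic genes and 3 of 10 pericyte and smooth muscle genes. It was also found for 4 of 8 dermal papilla, 6 of 9 adipocyte, 2 of 9 keratinocyte and 1 of 2 red blood cell genes. The Schwann, skeletal muscle and melanocyte lists had 0, and the share over all tested genes was 11.3%.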

Additional observations from a re-analysis of the deposited data

How the results depend on the processing

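The log2 difference of Entpd1 kept its direction in all 15 alternatives (1.06 to 1.41) and passed the threshold in 8 of them; adjusted p ran from 0.0102 to 0.242. It missed the threshold with pseudocount 0.1 (0.0586), with no filter on low values (0.0967), with library sex as a covariate (0.0966), without mutant 1, mutant 2 or control 2, and without both outermost libraries (mutant 1 and control 2). Entpd2 ran from 0.24 to 0.85, and no member other than Entpd1 was called in any alternative.

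Genes called higher numbered 9 with pseudocount 0.1, 4 with no filter on low values, 28 after median-of-ratios scaling, 32 after quantile normalization, 10 with library sex as a covariate, 186 with limma-voom on recovered reads and 9 without both outermost libraries, against 18; leaving out 1 library gave 3 (without mutant 2) to 189 (without control 3). Genes called lower numbered 1, 4 and 1 with library sex as a covariate, limma-voom on recovered reads and without both outermost libraries, and 0 to 4 when 1 library was left out, against 0. Purine pathway genes called outside the members ran from 0 to 1 when 1 library was left out. The replicate block gave 67 genes higher, 1 lower and an adjusted p of 0.0226 for Entpd1; same-numbered libraries did not deviate together (correlations 0.0016, 0.037 and -0.082), so the numbers are not taken to pair samples. The median of all tested genes, 0.09 in the deposited values, was -0.01 with median-of-ratios scaling, -0.03 with quantile normalization and -0.04 with limma-voom.

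Small log2 differences changed sign, none of them called. Nt5e was -0.0500 with median-of-ratios scaling, -0.0447 with quantile normalization and -0.0797 with limma-voom. Nek7 was -0.017 with limma-voom, and Ada -0.0219 with quantile normalization. Enpp1 and Il1rn were 0.0365 and 0.0347 with library sex as a covariate. Without both outermost libraries Nt5e was -0.0327, Ada -0.0109, P2rx7 -0.0201, Lrrc8a -0.00218, Nek7 -0.022 and Pycard -0.0208. With 1 library left out, Nt5e ran from -0.0884 to 0.203, Enpp1 from -0.215 to 0.0181, Ampd3 from -0.094 to 0.0208, Dpp4 from -0.249 to 0.0732, Gja1 from -0.314 to 0.0455 and Il1rn from -0.146 to 0.0918. The cause was not tested. The 3 adenosine receptor genes rest on 5 to 58 reads per library, too few for small differences to be detectable.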
